A study of Mus musculus with 6 samples.

Results

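The results below concern 10 immediate early genes of the mouse, found by symbol in a deposited table of transcript abundances with 55471 gene IDs. They are Fos, Fosb, Jun, Junb, Jund and Atf3, which encode basic leucine zipper transcription factors, Egr1, which encodes a zinc finger transcription factor, Ier2 and Ier5, which encode nuclear immediate early response proteins, and Zfp36, which encodes an mRNA decay factor. They were taken by name, with earlier results of these data known, and 8 of the 10 were abundant enough to be tested. RNA sequencing compared L28BME cells, which carry LIN28B together with the leukaemia fusion MLL-ENL, with ME cells, which carry MLL-ENL alone. Both groups were GMLPs from mouse bone marrow, sorted as Lin- Kit+ Sca1+ CD48+ CD150- cells and cultured for 3 days with DOX (doxycycline), so the fusion and the drug are common to both. There were 3 libraries per group. The promoters that drive LIN28B and the fusion, the age of the mice and any pooling of animals were not stated in the labels.

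Immediate early genes are transcribed within minutes of a stimulus, without the need for new protein, largely through serum response factor (SRF) with its ternary complex factors and through CREB. FOS and JUN family proteins pair to form AP-1, which binds DNA and drives a second wave of transcription, while EGR1 is a regulator of blood stem and progenitor cell quiescence and of monocytic differentiation in the mouse. Many of these mRNAs are short-lived because their 3′ untranslated regions (UTRs) carry AU-rich elements, and ZFP36, also called tristetraprolin, binds such elements and recruits the CCR4-NOT deadenylase. In mice, ZFP36 limits cytokine mRNAs such as Tnf and restrains myeloid overproduction. LIN28B is an RNA-binding protein best known from fetal blood, where it keeps let-7 microRNAs from maturing.

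Of the 8 tested genes, Zfp36, Ier5, Fos and Ier2 were higher in L28BME cells, by 1.24-fold to 1.30-fold, 0 were lower, and Egr1, Jun, Atf3 and Junb did not pass the test. The test was limma on log2(TPM + 1), where TPM is a transcript abundance per length scaled to a fixed total per library, with p-values adjusted over all 13348 genes tested and a call at an adjusted p under 0.05. In this comparison 8.28% of all tested genes were called higher and 6.6% were called lower. At an unadjusted p under 0.05 in limma the members counted 4 higher and 1 lower, the lower one being Egr1. At least 3819 of the 13348 tested genes, in either direction, had such an unadjusted p. Every L28BME library lay above every ME library for 5 tested members (Zfp36, Ier5, Fos, Ier2 and Jun), against 19.4% of all tested genes, and below every ME library for 1 (Egr1), against 17.4%. The median log2 fold change was 0.31 over the 8 tested members and also 0.31 without Junb, against 0.00 over all tested genes. The changes called in the members, 0.31 to 0.38 on the log2 scale, lay below the median size over all called genes, which was 0.39.

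When each of the 6 libraries was left out in turn, the number of members called higher was between 1 and 2, and Zfp36 was the member called every time. With a term for replicate number in the fit, 0 members were called. Over all tested genes, calls higher numbered 617 to 693 in the same omissions, against 1105 with all libraries. In bulk RNA, a change in the share of cells that express a gene and a change in RNA per cell cannot be told apart. The labels do not say that the libraries came from separate animals or cultures, so each p-value reflects the spread between these libraries alone, part or all of which may be technical.

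**Figure D1:**
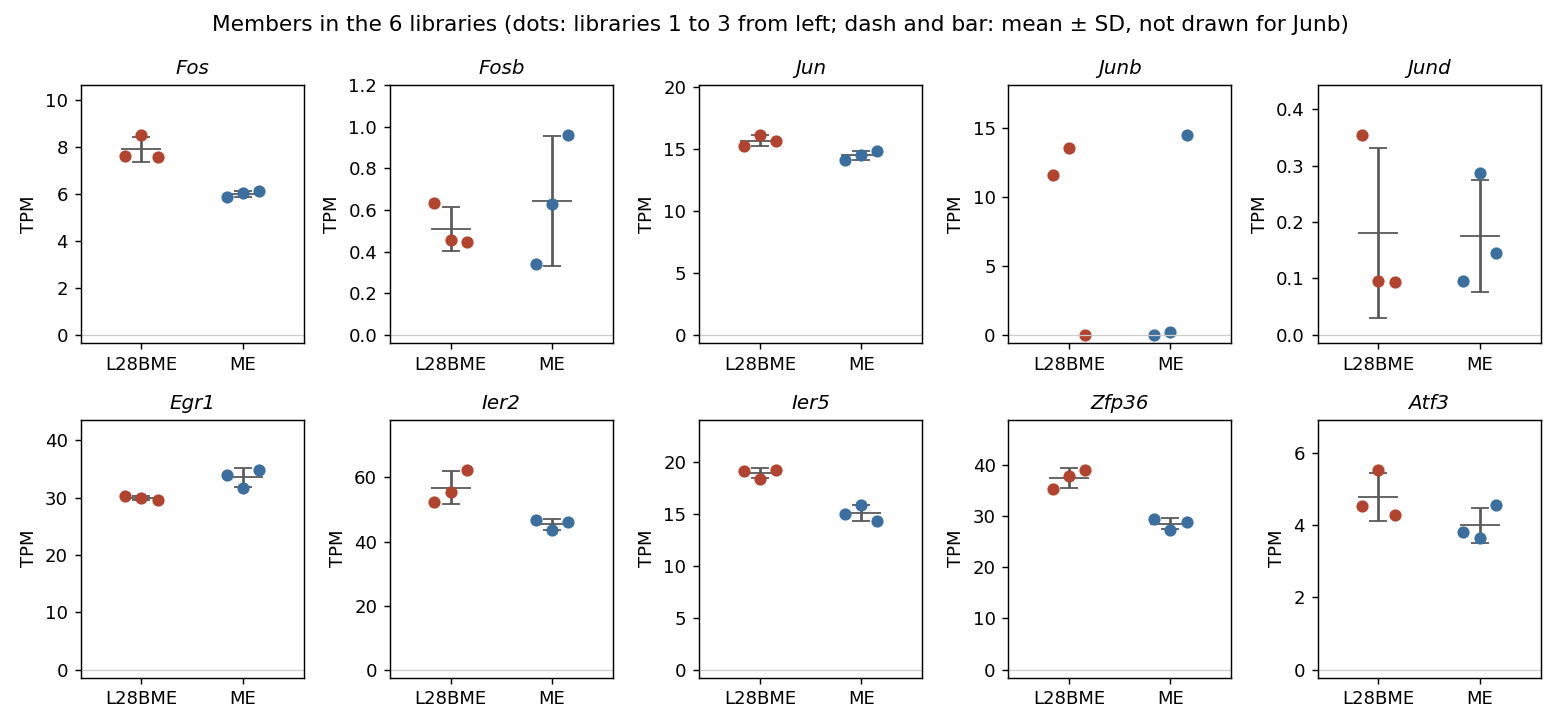
TPM of the 10 genes in each library, with L28BME on the left and ME on the right of each panel. Dots are libraries, and the dash with its bar is the mean ± SD (n = 3), left out for Junb. The groups are apart for Fos, Jun, Egr1, Ier2, Ier5 and Zfp36, and Junb is at or near 0 in 1 L28BME library and 2 ME libraries.

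TPM is scaled by transcript length, so levels can be set side by side between genes. Ier2 was the most abundant of the 10, at 56.8 ± 5.11 TPM in L28BME cells and 45.4 ± 1.74 TPM in ME cells (SD, n = 3 each). Zfp36 and Egr1 came next, and their order differed between the groups: in L28BME cells the lowest Zfp36 value, 35.2 TPM, stood above the highest Egr1 value, 30.3 TPM, while in ME cells the highest Zfp36 value, 29.3 TPM, stood below the lowest Egr1 value, 31.6 TPM. Ier5 stood above Jun in every L28BME library, but in ME cells their ranges overlapped, at 14.4 to 15.9 TPM for Ier5 and 14.1 to 14.9 TPM for Jun. Fos and then Atf3 were lower, with no overlap of these genes within either group, and Fosb and Jund stayed under 1 TPM in all 6 libraries. Junb cannot be placed in the order, since its values were split between near 0 and over 10 TPM. Jund is placed by its listed values alone, which are uncertain, as described below.

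Fos encodes the AP-1 subunit that pairs with JUN proteins and cannot bind DNA as a homodimer. It lies on the plus strand of chromosome 12 at 85473890 to 85477273 in GRCm38 (ENSMUSG00000021250). The sequences shown for Fos are the stretch around its transcription start and the AU-rich site in its 3′ UTR, the kind of element that ZFP36 binds. Control elements more than 250 bases before the start fall outside the window and were not searched. The start window is chr12:85473640-85473939 on the plus strand of GRCm38.p6, from RefSeq, and capitals mark TGACG, the core of the site bound by CREB and ATF proteins, and TATAAA.
Fos start window: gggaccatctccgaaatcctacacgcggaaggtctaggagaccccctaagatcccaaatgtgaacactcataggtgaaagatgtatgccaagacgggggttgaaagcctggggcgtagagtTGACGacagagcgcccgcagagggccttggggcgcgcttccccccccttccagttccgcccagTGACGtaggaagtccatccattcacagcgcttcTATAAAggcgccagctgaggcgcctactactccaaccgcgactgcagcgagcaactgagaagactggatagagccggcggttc
Fos 3′ UTR, bases 642 to 671 of 815: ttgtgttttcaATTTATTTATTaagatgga
In the 3′ UTR site, capitals mark overlapping copies of ATTTA and the nonamer TTATTTATT, which overlaps them. The start window held TGACG at 129 and 66 bases before the start and TATAAA at 33 bases before it. Among 32851 RefSeq windows of the same length, 20.8% held TGACG on either strand and 13.6% held TATAAA.

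Fos had 7.59, 8.51 and 7.58 TPM in the L28BME libraries, against 5.88, 6.02 and 6.12 TPM in the ME libraries. All 3 L28BME values lay above all 3 ME values, and the second L28BME library was the highest. The means were 7.89 ± 0.533 TPM in L28BME cells and 6.01 ± 0.121 TPM in ME cells (SD, n = 3 each). The log2 fold change was 0.34 (SE 0.077, 95% confidence interval 0.16 to 0.53), a 1.27-fold difference, with an adjusted p of 0.0342 from limma. The call did not hold when any 1 of the 6 libraries was left out, where the adjusted p ranged from 0.0748 to 0.0967, or without the filter on low values, where it was 0.0896. With a pseudocount of 5 in place of 1, the log2 fold change of Fos was 0.23.

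Jun encodes the partner of FOS in the classical AP-1 dimer and lies on the minus strand of chromosome 4 at 95049034 to 95052222 (ENSMUSG00000052684). Jun had 15.2, 16.1 and 15.6 TPM in L28BME libraries, against 14.1, 14.5 and 14.9 TPM in ME libraries. The groups did not overlap, but the gap between them was narrower than the spread within either group. The means were 15.7 ± 0.455 TPM in L28BME cells and 14.5 ± 0.396 TPM in ME cells (SD, n = 3 each), and the log2 fold change of 0.11 (SE 0.056, 95% confidence interval -0.03 to 0.24) had an adjusted p of 0.268. Fos over Jun, a ratio taken within each library, was 0.498, 0.527 and 0.485 in L28BME cells, against 0.418, 0.415 and 0.412 in ME cells. All 3 L28BME ratios were higher, and a two-sided exact permutation test gave p = 0.1, the smallest value that 3 libraries against 3 allow.

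Atf3 encodes a stress-induced member of the ATF and CREB family that can form dimers with JUN proteins. It lies on the minus strand of chromosome 1 at 191170296 to 191218039 (ENSMUSG00000026628). Atf3 had 4.52, 5.53 and 4.29 TPM in L28BME libraries and 3.80, 3.63 and 4.54 TPM in ME libraries. The groups overlapped, because the third ME library was above all but the second L28BME library. The log2 fold change of 0.21 (SE 0.12, 95% confidence interval -0.09 to 0.51) had an adjusted p of 0.317.

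The other AP-1 subunits were listed at low or uneven values. Junb, whose protein is a weaker activator than JUN and restrains myeloid proliferation in mice, had 11.6 and 13.5 TPM in the first and second L28BME libraries and was listed at 0 in the third, while in ME libraries it was listed at 0, 0.181 and 14.5 TPM. High and near-zero values thus occurred in both groups, and no mean is given. The fitted log2 fold change was 1.11 with a 95% confidence interval of -2.44 to 4.65 and an adjusted p of 0.662, and only 7 of the 13348 tested genes had a standard error as large as its 1.45. Junb lies on the minus strand of chromosome 8 at 84974484 to 84978718 (ENSMUSG00000052837) and shares 173 exonic bases with Prdx2, a peroxidase gene on the opposite strand. Prdx2 had 250, 248 and 249 TPM in L28BME libraries, against 288, 294 and 301 TPM in ME libraries, and was called lower, with a log2 fold change of -0.24 and an adjusted p of 0.00404. The labels do not state whether quantification used strand, so the values of Junb are uncertain. With Prdx2 added to Junb, a setting chosen after seeing the data, the log2 fold change was -0.21 with an adjusted p of 0.0270.

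Fosb, which encodes a FOS paralog, had 0.631, 0.455 and 0.444 TPM in L28BME libraries and 0.339, 0.629 and 0.960 TPM in ME libraries. Jund, which encodes the JUN family member that most cells express constantly, had 0.354, 0.0947 and 0.0933 TPM in L28BME libraries and 0.0952, 0.287 and 0.144 TPM in ME libraries. The groups overlapped for both genes, and neither reached 1 TPM in 3 libraries, so neither was tested. The minus strand of chromosome 7 holds Fosb at 19302696 to 19310051, and the plus strand of chromosome 8 holds Jund at 70698949 to 70700616, where 877 of its exonic bases are shared with Gm11175, a model on the opposite strand that was listed at 0 in all 6 libraries. Use of strand in quantification was not stated, and the values of Jund are uncertain. Unlike Prdx2 at the Junb locus, Gm11175 held no signal, so adding it left the values of Jund unchanged.

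Ier5 encodes an immediate early protein that takes part in the activation of heat shock factor HSF1 and in protein phosphatase function. It lies on the minus strand of chromosome 1 at 155096361 to 155099636 (ENSMUSG00000056708). Its start window is shown as the one among the called genes with a RefSeq window in which none of the motifs searched was found, so it has no capitals; it is chr1:155099587-155099886 on the minus strand of GRCm38.p6.
Ier5 start window: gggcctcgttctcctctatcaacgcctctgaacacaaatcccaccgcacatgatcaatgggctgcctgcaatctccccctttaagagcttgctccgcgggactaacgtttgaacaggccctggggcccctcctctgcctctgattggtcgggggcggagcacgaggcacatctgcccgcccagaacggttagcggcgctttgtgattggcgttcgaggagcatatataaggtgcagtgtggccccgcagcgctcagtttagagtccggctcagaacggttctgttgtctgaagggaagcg
Ier5 had 19.2, 18.4 and 19.3 TPM in L28BME libraries, against 15.0, 15.9 and 14.4 TPM in ME libraries. The groups were well apart, with every L28BME value above 18 TPM and every ME value below 16 TPM. The means were 18.9 ± 0.489 TPM in L28BME cells and 15.1 ± 0.779 TPM in ME cells (SD, n = 3 each). L28BME over ME the log2 fold change was 0.31 (SE 0.060, 95% confidence interval 0.16 to 0.46), a 1.24-fold difference, with an adjusted p of 0.0230. With 1 library left out the call held only without the second ME library, at 0.0421, and the adjusted p reached 0.0750 among the other 5 omissions.

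Ier2 encodes a nuclear protein that binds protein phosphatase subunits and modulates transcription. The gene lies on the minus strand of chromosome 8 at 84661331 to 84662852 (ENSMUSG00000053560). Ier2 had 52.4, 55.6 and 62.4 TPM in L28BME libraries, against 46.8, 43.5 and 46.0 TPM in ME libraries. The groups did not overlap, and the third L28BME library was the highest of the 6. On the log2 scale the fold change was 0.31 (SE 0.072, 95% confidence interval 0.14 to 0.49), a 1.24-fold difference, with an adjusted p of 0.0376. With 1 library left out the call held only without the first L28BME library, at 0.0419, and the adjusted p reached 0.114 without the second ME library. The call was also lost without the filter on low values, with quantile normalization and without the intensity trend, where the adjusted p was 0.0633, 0.0501 and 0.0544 in turn.

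Zfp36, the mRNA decay gene of the group, lies on the minus strand of chromosome 7 at 28376784 to 28380253 (ENSMUSG00000044786). Its start window is shown because it holds motifs for SRF and EGR proteins, and its AU-rich site because the Zfp36 mRNA carries the element that its own protein binds. The start window is chr7:28379179-28379478 on the minus strand of GRCm38.p6, from RefSeq, and its capitals mark, in reading order, a match to the EGR motif and the CArG box of SRF.
Zfp36 start window: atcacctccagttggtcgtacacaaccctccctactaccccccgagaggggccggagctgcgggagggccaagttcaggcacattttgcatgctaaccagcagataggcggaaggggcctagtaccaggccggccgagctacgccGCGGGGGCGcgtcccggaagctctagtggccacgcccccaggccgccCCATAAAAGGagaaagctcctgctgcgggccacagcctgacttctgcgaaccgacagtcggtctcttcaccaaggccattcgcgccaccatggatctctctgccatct
Zfp36 3′ UTR, bases 571 to 600 of 774: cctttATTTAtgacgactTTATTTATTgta
In the 3′ UTR site, capitals mark ATTTA and the nonamer TTATTTATT. The CArG box began 58 bases before the start and the EGR match 105 bases before it. Of the 32851 windows, 1.63% held a CArG box and 5.55% held the EGR motif, GCGNGGGCG, on either strand. The same EGR match stood 50 bases before the start of Fosb, and TGACG was also found, on either strand, in the windows of Fosb, Junb and Atf3. Of these genes, Junb and Atf3 were not called and Fosb was not tested. These matches are of letters and do not show that a factor was bound.

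Zfp36 had 35.2, 37.9 and 39.1 TPM in L28BME libraries, against 29.3, 27.3 and 28.8 TPM in ME libraries. Every L28BME value lay above every ME value, with a gap of several TPM. The means were 37.4 ± 1.97 TPM in L28BME cells and 28.5 ± 1.08 TPM in ME cells (SD, n = 3 each). The log2 fold change was 0.38 (SE 0.058, 95% confidence interval 0.24 to 0.52), a 1.30-fold difference, with an adjusted p of 0.00979. The call held whichever of the 6 libraries was left out, with adjusted p between 0.0192 and 0.0388. It was lost with a term for replicate number in the fit. Zfp36 shares 125 exonic bases with Gm44710, a model on the opposite strand at 0 TPM in all L28BME libraries and 1.04, 0 and 0.347 TPM in ME libraries, and with its values added the adjusted p was 0.0165. With Med29, which is linked to Zfp36 through Gm44710, also added, the log2 fold change was 0.22 and the adjusted p was 0.0607.

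Egr1 had lower values in L28BME cells but did not pass the test. It lies on the plus strand of chromosome 18 at 34859823 to 34864984 (ENSMUSG00000038418). Egr1 had 30.3, 29.9 and 29.6 TPM in L28BME libraries, against 34.0, 31.6 and 34.9 TPM in ME libraries. Every L28BME value lay below every ME value, and the L28BME libraries were the more alike. The log2 fold change was -0.16 (SE 0.052, 95% confidence interval -0.28 to -0.03), with an unadjusted p of 0.0221 and an adjusted p of 0.101 in limma. Zfp36 over Egr1 within each library was 1.16, 1.27 and 1.32 in L28BME cells, against 0.863, 0.861 and 0.827 in ME cells. The 2 ratios of this kind, here and for Fos over Jun, were chosen after the values of these genes were known, and each had a two-sided exact permutation p of 0.1, also 0.1 after adjustment over both. Since Zfp36 was higher and Egr1 lower in every L28BME library, their ratio had to separate the groups. Its p therefore adds nothing to the values of the genes.

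**Figure D2:**
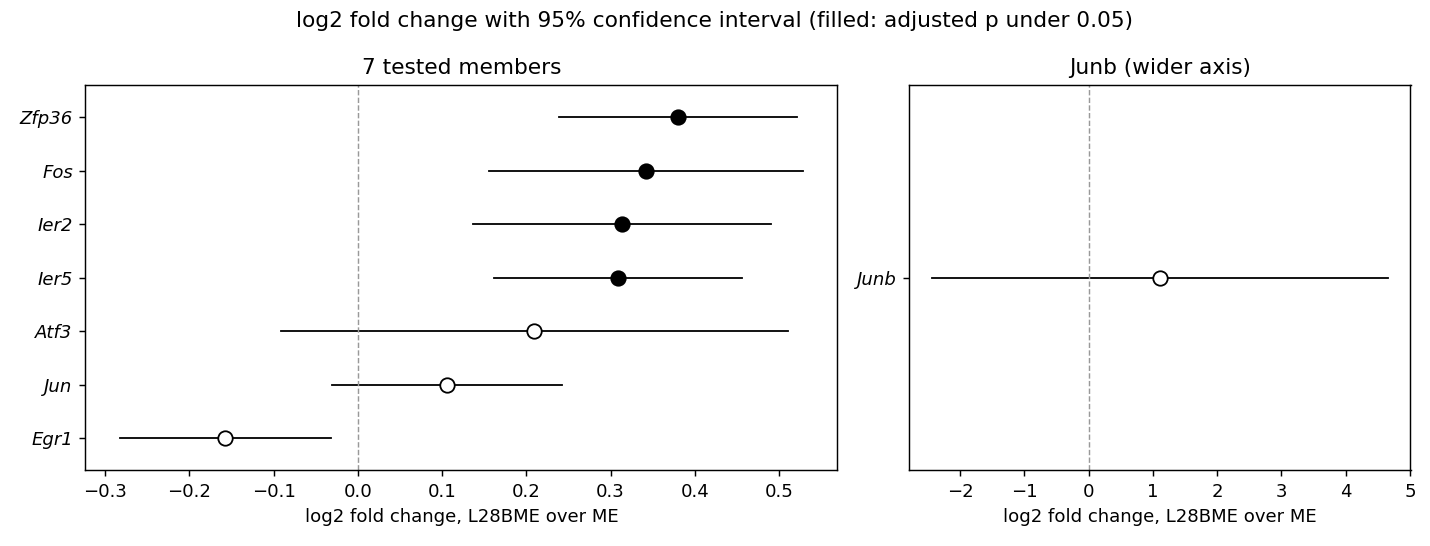
log2 fold change of the 8 tested genes, L28BME over ME on the log2(TPM + 1) scale, with 95% confidence intervals from limma and Junb on a wider axis of its own. Filled points passed an adjusted p of 0.05: Zfp36, Fos, Ier2 and Ier5, with fold changes of 0.31 to 0.38.

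**Figure D3:**
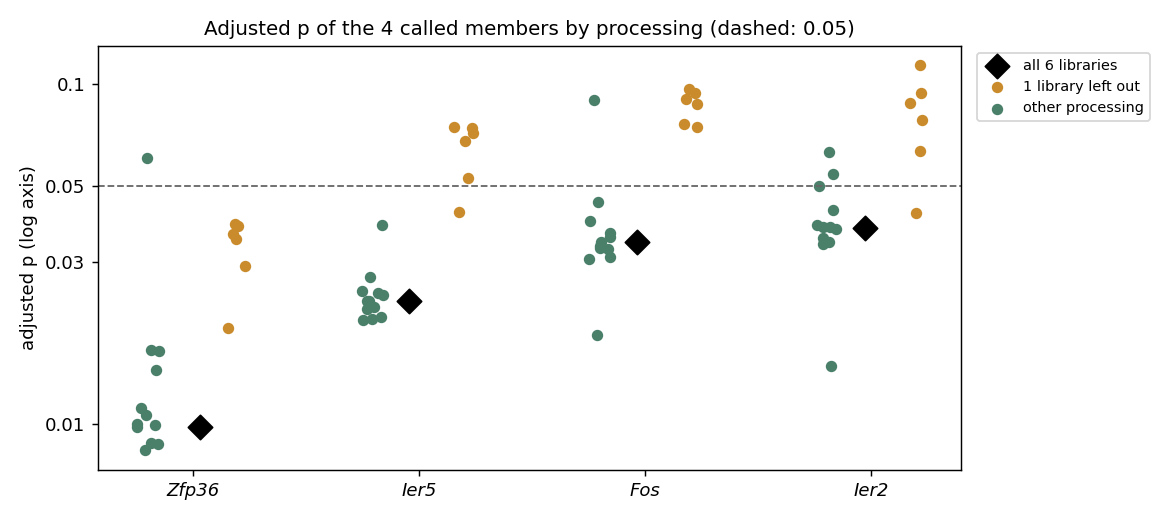
Adjusted p of the 4 called genes on a log axis, with all 6 libraries (diamonds), with 1 library left out (orange) and with other processing (green, with the term for replicate number not drawn); the dashed line is 0.05. Only Zfp36 stayed under the line in every omission, while Fos lay above it in all of them. With the term for replicate number, 0 of the 4 were called.

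AU-rich letters were looked for in the 3′ UTRs, read from the longest protein-coding transcript of each gene in GENCODE M21. ATTTA was found in 9 of the 10, all but Ier2, against 69.2% of the 10864 tested genes with an annotated 3′ UTR. Its density was above the median of those genes, 1.29 per kilobase, in 7 of the 10, and it was highest in Fos at 4.91, Junb at 4.12 and Zfp36 at 3.88. The nonamer TTATTTATT, which holds ATTTA within it, was found in Fos and Zfp36, against 7.86% of those genes. Of the 4 called genes, Ier2 had no ATTTA in its 755 bases and Ier5 had 0.933 per kilobase, below the median. Jun, Atf3 and Egr1, which were not called, had 3.24, 2.53 and 1.64 per kilobase and no nonamer, and Fosb, which was not tested, had 0.466 per kilobase. The sites of Jun and Ier5 are shown to set beside those of Fos and Zfp36, with ATTTA in capitals.
Jun 3′ UTR, bases 1031 to 1060 of 1233: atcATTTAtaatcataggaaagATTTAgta
Ier5 3′ UTR, bases 1628 to 1657 of 2143: ggaggttggctaaATTTAattctcatgtag

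LIN28B acts on let-7 precursors, so sites for the let-7 seed were looked for in the same 3′ UTRs. The mature mouse let-7a-5p sequence, from RefSeq, has its seed, bases 2 to 8, in capitals.
let-7a-5p: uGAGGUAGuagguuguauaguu
A site complementary to that seed was found in 0 of the 10 genes, against 10.3% of the 10864 tested genes with an annotated 3′ UTR. Seed matches outside the 3′ UTR and in shorter transcripts were not searched. None of the 8 genes with a RefSeq start window held a full CRE, the palindromic CREB site, or an AP-1 site, TGANTCA, which 1.79% and 7.81% of all windows held on either strand. Egr1 and Ier2 were without a window in the RefSeq table. RefSeq starts can differ from the ends of the GENCODE loci given above. The Jund window, chr8:70697489-70697788 on the plus strand, ends before the GENCODE model of Jund begins at 70698949. For Jund the search therefore does not cover the start of the model whose TPM are given. The Atf3 and Zfp36 windows lie inside their GENCODE spans.

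Genes that work with the members were read from the same fit. The lists overlap in a few genes. For each list, counts at an adjusted p under 0.05 stand beside the background of 8.28% higher and 6.6% lower. Counts at an unadjusted p under 0.05 in limma have a wider background, of at least 3819 of the 13348 tested genes in either direction. Among 35 other immediate early genes, 29 were tested, of which 9 were higher and 4 lower, with a median log2 fold change of 0.14 against 0.00 over all tested genes. Klf2, which encodes a transcription factor of quiescence, had the smallest p, with 24.4, 23.8 and 24.2 TPM in L28BME libraries against 12.2, 13.6 and 12.3 TPM in ME libraries, a log2 fold change of 0.88 and an adjusted p of 0.000772. Nfil3, which encodes a basic leucine zipper repressor needed for natural killer and innate lymphoid cells, averaged 68.9 ± 0.531 TPM in L28BME cells and 47.5 ± 1.50 TPM in ME cells (SD, n = 3 each), a log2 fold change of 0.53 with an adjusted p of 0.000948. Sik1, which encodes a kinase that restrains CREB coactivators, averaged 23.7 ± 1.56 TPM in L28BME cells and 14.6 ± 1.26 TPM in ME cells, and Dusp2, which encodes a nuclear phosphatase of MAP kinases, averaged 83.1 ± 4.94 TPM in L28BME cells and 64.1 ± 1.88 TPM in ME cells (SD, n = 3 each). Their log2 fold changes were 0.66 for Sik1 and 0.37 for Dusp2, with adjusted p of 0.00525 and 0.00825, and the calls of Klf2, Nfil3, Sik1 and Dusp2 held in every omission of 1 library. These fold changes in Klf2, Nfil3 and Sik1 were larger than any among the 4 called members, in these same libraries.

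The further 5 higher genes of that list, Btg2, Klf6, Klf10, Socs3 and Rhob, had log2 fold changes of 0.16 for Rhob to 0.42 for Btg2 and are named after their values were seen. The 4 lower genes are named on the same footing. Sgk1, which encodes a serum and glucocorticoid induced kinase, averaged 7.75 ± 1.38 TPM in L28BME cells and 14.2 ± 1.46 TPM in ME cells (SD, n = 3 each), a log2 fold change of -0.80, and Trib1, Bhlhe40 and Nfkbia had -0.42, -0.26 and -0.20. Immediate early genes thus differed in both directions, with between 6 and 7 called higher and between 1 and 3 called lower when any 1 library was left out. With a term for replicate number in the fit, 5 were called higher and 1 lower.

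AP-1 partners and related leucine zipper genes gave 0 higher and 2 lower of 13 tested, with a median log2 fold change of -0.14; at an unadjusted p under 0.05 in limma they gave 2 higher and 3 lower. Creb1, which encodes the activator that binds the CRE of immediate early promoters, had 16.4, 20.4 and 15.2 TPM in L28BME libraries, against 35.4, 37.9 and 35.3 TPM in ME libraries. All L28BME values were far below all ME values. The log2 fold change of -1.03 (SE 0.110) had an adjusted p of 0.00304, and it was called in every omission of 1 library. Mafg, which encodes a small MAF protein, averaged 57.2 ± 2.33 TPM in L28BME cells and 67.1 ± 0.762 TPM in ME cells (SD, n = 3 each), a log2 fold change of -0.23 with an adjusted p of 0.0200, and with 1 library left out it was called only without the third L28BME library, while the adjusted p reached 0.0714. With overlapping gene models summed, the log2 fold change at the Mafg locus was -0.08 and the adjusted p was 0.172.

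Upstream of these genes, the list of SRF, ternary complex factors and kinases gave 1 higher and 0 lower of 18 tested, with a median log2 fold change of -0.02, and 4 higher and 2 lower at an unadjusted p under 0.05 in limma. The higher gene was Rps6ka1, which encodes the kinase RSK1 downstream of ERK, at 199 ± 8.13 TPM in L28BME cells and 170 ± 1.55 TPM in ME cells (SD, n = 3 each), a log2 fold change of 0.22 with an adjusted p of 0.0135 that was 0.0532 without the second ME library. Of the EGR family and its NAB corepressors, 2 of 5 genes were tested, Nab1 and Nab2, with 0 called; at an unadjusted p under 0.05 in limma 1 was higher and 0 lower. Nab1 averaged 57.7 ± 1.29 TPM in L28BME cells and 52.5 ± 0.416 TPM in ME cells, and Nab2 averaged 7.53 ± 1.21 TPM in L28BME cells and 8.13 ± 0.671 TPM in ME cells (SD, n = 3 each).

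On the side of mRNA decay, the tested paralogs of Zfp36 went in opposite directions. Zfp36l2, whose protein also binds AU-rich elements and is needed for blood stem cells in mice, had 214, 213 and 216 TPM in L28BME libraries, against 245, 239 and 237 TPM in ME libraries. Every L28BME value was the lower, and the log2 fold change of -0.17 (SE 0.027) had an adjusted p of 0.0125, which stayed under 0.05 in all 6 omissions. It was lost without the intensity trend, at 0.0513, and with a term for replicate number, at 0.0594. Zfp36l1, a paralog at a far lower level, had 9.28, 9.66 and 8.90 TPM in L28BME libraries, against 7.36, 5.97 and 6.99 TPM in ME libraries, a log2 fold change of 0.41 with an adjusted p of 0.0357. That call was lost in every omission of 1 library, at 0.0532 to 0.103, and without the filter on low values, at 0.0793. Zfp36l3 was listed at 0 in all 6 libraries.

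The deadenylation, decapping and AU-rich element binding genes, 34 tested of 34, gave 1 higher and 1 lower, with a median log2 fold change of 0.04, and 7 higher and 3 lower at an unadjusted p under 0.05 in limma. Cnot11, a subunit of the CCR4-NOT deadenylase, averaged 51.6 ± 1.40 TPM in L28BME cells and 44.2 ± 1.72 TPM in ME cells (SD, n = 3 each), a log2 fold change of 0.22 with an adjusted p of 0.0283 that held in 1 omission, that of the second ME library, and reached 0.0883. Tob2, an antiproliferative protein that links CCR4-NOT to its targets, averaged 31.5 ± 1.19 TPM in L28BME cells and 37.4 ± 0.275 TPM in ME cells (SD, n = 3 each), a log2 fold change of -0.24 with an adjusted p of 0.0202 that held in 1 omission, that of the first L28BME library, and reached 0.0699. Of 22 mRNAs known to carry AU-rich elements bound by ZFP36, such as Tnf and Ier3, 14 were tested and 0 were called; at an unadjusted p under 0.05 in limma 5 were higher and 2 lower, and the median log2 fold change was 0.10. Tnf, the target first tied to ZFP36 in mice, had 23.1, 25.3 and 25.7 TPM in L28BME libraries and 26.7, 27.4 and 26.9 TPM in ME libraries, with an adjusted p of 0.211.

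**Figure D4:**
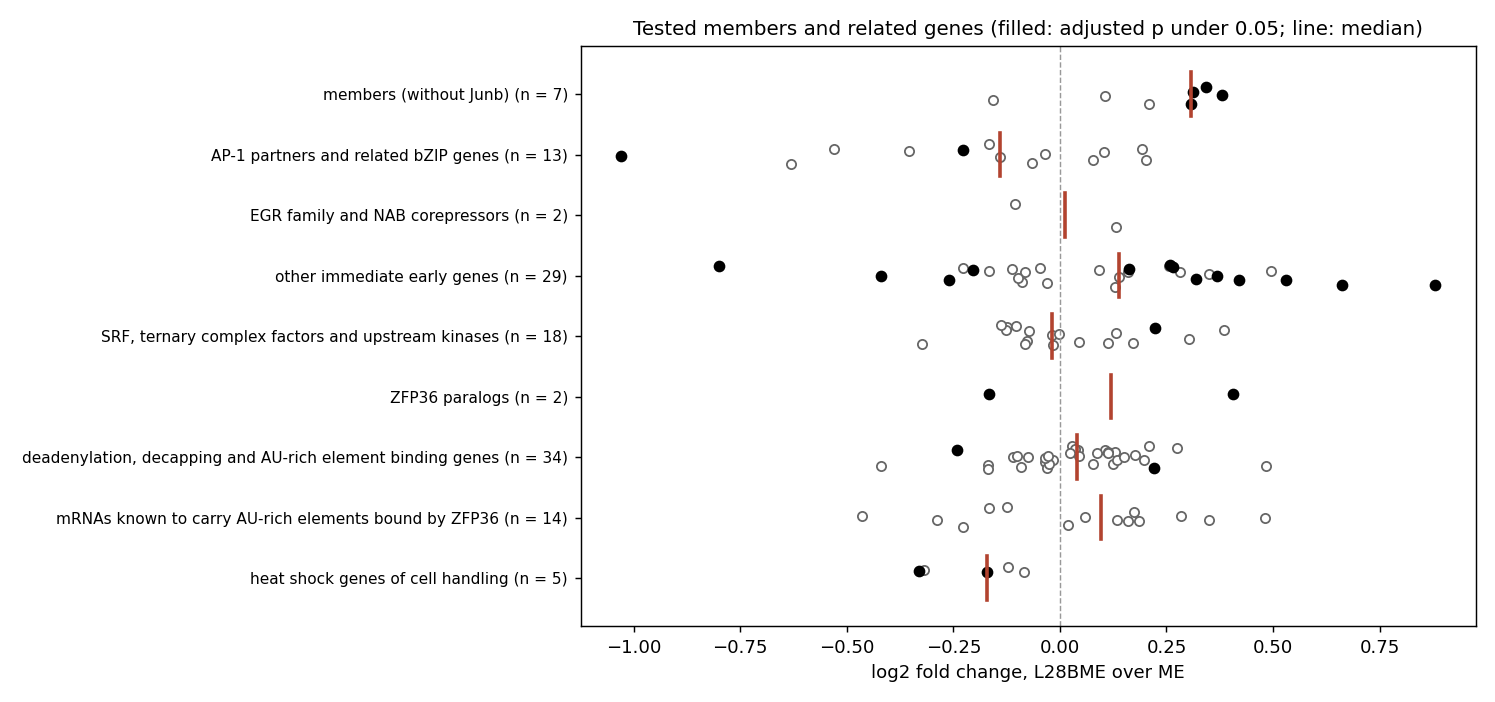
log2 fold change, L28BME over ME, of the tested members (Junb left out) and of each tested gene in 8 related lists. Filled points passed an adjusted p of 0.05 and red lines are medians: 0.31 for the members, 0.14 for other immediate early genes and -0.14 for AP-1 partners and related genes.

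Heat shock genes, which handling of cells can induce together with immediate early genes, were read alongside. Of 5 tested, 0 were higher and 2 lower (0 and 3 at an unadjusted p under 0.05 in limma), with a median log2 fold change of -0.17. Hspa1a, Hspa1b and Hspb1, also in the list, stayed under 1 TPM in all 6 libraries and were not tested. Hspe1, a mitochondrial chaperonin, averaged 477 ± 11.3 TPM in L28BME cells and 537 ± 6.42 TPM in ME cells, and Hsph1, a cytosolic chaperone, averaged 108 ± 8.34 TPM in L28BME cells and 136 ± 4.62 TPM in ME cells (SD, n = 3 each). The log2 fold change of Hspe1 was -0.17 with an adjusted p of 0.0129, which reached 0.0526 without the second ME library and 0.055 without the intensity trend. With overlapping gene models summed, Hspe1 had a log2 fold change of -0.10 and an adjusted p of 0.0607. The adjusted p was 0.0213 for Hsph1, which was lost in 4 of the 6 omissions, at up to 0.0733.

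Lin28b was listed at 11.2, 11.7 and 11.9 TPM in L28BME libraries and at 0 in the ME libraries, as the labels have it. Genes at 1 TPM or more numbered 13215 to 13288 per library, and mitochondrially encoded RNA took 4.49 to 4.85% of the TPM in L28BME libraries and 4.12 to 4.35% in ME libraries. Of the genes of the sort, Kit had 73.2 to 88.4 TPM in L28BME libraries and 76.5 to 106 TPM in ME libraries and was not called, while Cd48, at 226 to 231 TPM in L28BME libraries and 291 to 302 TPM in ME libraries, and Ly6a, which encodes Sca1, at 1.38 to 3.18 TPM in L28BME libraries and 9.64 to 11.8 TPM in ME libraries, were both called lower; Slamf1, which encodes CD150, stayed under 1 TPM. Summed markers of mature neutrophils stood at 18.3 to 22.2 TPM in L28BME and 11.6 to 12.9 TPM in ME libraries (6 genes, 1 called higher), and those of dendritic cells at 189 to 193 TPM in L28BME and 98.6 to 107 TPM in ME (6 genes, 1 higher, 1 lower, mostly Flt3, Cd209a at 0). The sums for megakaryocytes were 115 to 129 TPM in L28BME and 76.6 to 80.5 TPM in ME (4 genes, 3 higher), and for erythroid cells 20.4 to 32.7 TPM in L28BME and 10.5 to 18.7 TPM in ME (5 genes, 0 called). Progenitor sums were lower, at 5954 to 6711 TPM in L28BME and 7993 to 8067 TPM in ME (7 genes, 1 higher, 5 lower). Most of that sum was Mpo, and the 1 higher gene, Flt3, averaged 187 TPM in L28BME and 96.6 TPM in ME. Sums for monocytes and macrophages were also lower, at 283 to 292 TPM in L28BME and 387 to 409 TPM in ME. Of these 6 genes 1 was higher and 3 lower, with most of the sum from Ly6c2 and C1qa at 0. The same held for mast cells and basophils, at 317 to 319 TPM in L28BME and 395 to 427 TPM in ME (4 genes, 2 lower), and for stromal and endothelial cells, at 110 to 115 TPM in L28BME and 162 to 164 TPM in ME (6 genes, 1 lower, nearly all Pecam1, Cxcl12 at 0). B cell markers summed to at most 0.868 TPM in L28BME and 0.267 TPM in ME (4 genes), and T and NK cell markers to at most 0.523 TPM in L28BME and 0.0607 TPM in ME (6 genes), with Cd3e, Cd8a and Ncr1 at 0. The part of these marker differences in the levels of the immediate early genes was not tested.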

How the data were processed

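Per the labels' protocols, RNA came from a single cell purification kit and was made into TruSeq Stranded mRNA libraries. Per the submitters' processing notes, the tools of the authors included bcl2fastq, HISAT2, StringTie and DESeq2, with GRCm38 as the assembly; no versions were stated. The authors deposited TPM for every gene and library, with the percent GC of the gene beside it. TPM keep no counts, so depth is unknown and no counting interval is given.

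Genes that reached 1 TPM in 3 or more of the 6 libraries were compared as log2(TPM + 1) with limma 3.58.1 in R 4.3.3 (intensity trend, two-sided, Benjamini-Hochberg over all tested genes, called at an adjusted p under 0.05), L28BME minus ME; a fold change on this scale understates the change of low genes. The procedure was also run on simulated data with independent noise for each gene and library. That run held no shifts shared between genes, so it does not cover them. Tables and plots used Python 3.11.15, pandas 2.3.3, numpy 2.4.6 and matplotlib 3.10.9. Loci and 3′ UTRs came from GENCODE M21 for GRCm38, and start windows (250 bases before to 50 after the start; 8 of the 10 genes matched) and let-7a from RefSeq. Motifs were sought on both strands; a full CRE also counts as a TGACG match.

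The 10 genes, the gene lists and the markers were chosen with earlier results of these data known, so no p-value is adjusted over a list alone. All 10 genes are reported. Of each list, up to 4 called genes with the smallest p were to be named. Others named in the text fall outside that rule: Btg2, Klf6, Klf10, Socs3, Rhob, Sgk1, Trib1, Bhlhe40, Nfkbia, Nab1, Nab2, Tnf, Prdx2, Med29 and Lin28b. The same holds for Hspa1a, Hspa1b and Hspb1, and for marker genes named beside a sum. Alternatives were other pseudocounts, filters and scalings, limma options, summed overlapping gene models, a term for replicate number and leaving out each library; removal of a GC trend and addition of directly overlapping models were chosen after seeing the data.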

Additional observations from a re-analysis of the deposited data

How the results depend on the processing

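The count of 4 members called higher became 2 without the filter on low values, where 23940 genes were tested, 0 with a replicate block, and 1 to 2 when 1 library was left out; it was 3 or 4 in the other 11 settings. The count of 0 lower became 1 when the directly overlapping gene models were added: with Prdx2 added, Junb had a log2 fold change of -0.21, the reverse of its sign alone, and an adjusted p of 0.0270, and since the sum consists almost wholly of Prdx2 it describes that gene. The labels do not say whether equal replicate numbers share an animal, culture or day. Deviations from the group means of same-numbered libraries correlated at -0.0320, -0.0743 and -0.0516, and no library correlated best with its own number. With 3 libraries per group, such correlations cannot decide whether the numbers pair the samples. Over all genes the replicate block gave 548 calls higher and 400 lower, against 1105 and 881 without it. Among the genes named by rule from the related lists, the block removed the calls of Mafg, Zfp36l1, Zfp36l2, Tob2, Cnot11 and Hsph1. Those of Creb1, Klf2, Nfil3, Sik1, Dusp2, Rps6ka1 and Hspe1 held with it. Leaving out 1 library gave 617 to 693 higher and 461 to 582 lower. Removing a GC trend, tried because the members' GC percent (46.2 to 67.2, with a median of 46.3 over tested genes) was mostly high, kept the calls of Zfp36, Ier5, Fos and Ier2. Egr1, Jun and Atf3 were called under none of the alternatives run, with adjusted p no lower than 0.0779 for Egr1, 0.201 for Jun and 0.249 for Atf3; a minimum of 5 TPM left Atf3 untested. TPM hold no depth, so counting error could not be set beside these changes.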
